A study of Mus musculus with 94 samples.

Results

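The genes described here are 10 regulators of cell survival: the pro-survival genes Bcl2, Bcl2l1, Mcl1, Bcl2a1b and Bcl2a1d, the pore-forming effectors Bax and Bak1, the BH3-only genes Bid and Bcl2l11, and the kinase gene Pim1. They were taken by name from a count table of 46078 mouse gene identifiers, and all 10 were present in it. The table holds 94 single basophils sorted from bone marrow, all from female mice of the C57BL/6 strain. Basophils are rare granulocytes that carry FcεRI, the high-affinity receptor for IgE. Both gates took live cells without lineage markers or Sca1 and with FcεRI on the surface. They differed in CD34, a surface protein of progenitors: 47 cells were labelled CD34-positive and 47 CD34-negative. No cell carried a transgene or was treated, as far as the labels say, and the age of the mice was not given there. The study names 3 mice, but the labels do not say from which one each cell came. Each gate was therefore taken as 1 sample: no test was made between the gates, and the spread among the cells of a gate is described instead.

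BCL2 family proteins decide whether the outer mitochondrial membrane stays intact. Pro-survival members such as BCL2, BCL-XL (from Bcl2l1), MCL1 and A1 (from the Bcl2a1 genes) hold the effectors BAX and BAK in check, and BH3-only proteins such as BIM (from Bcl2l11) and BID release them, after which cytochrome c leaves the mitochondria and caspases are activated. Granulocytes depend on this balance, and cytokines such as IL-3, the main growth factor of basophils, act on it partly through pro-survival family members and the PIM kinases.

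Mouse A1 comes from several near-identical genes, so the sequences of 3 of them are shown first, because they bear on what a count of 0 means for these genes. In the GENCODE M21 annotation of mm10, Bcl2a1b (ENSMUSG00000089929) lies at chr9:89199209-89207827 on the plus strand, Bcl2a1d (ENSMUSG00000099974) at chr9:88723285-88731914 on the minus strand and Bcl2a1a (ENSMUSG00000102037), which is not one of the 10 genes, at chr9:88956900-88962419 on the plus strand. Each has a coding sequence of 516 bases. The coding sequence of Bcl2a1b was 98.8% identical to that of Bcl2a1d (6 bases differed) and 97.9% identical to that of Bcl2a1a (11 bases differed). Bases 95 to 144 of the coding sequence, as long as 1 read of this study (50 bases), are the same in all 3 genes, so a read from there could not be placed:
Bcl2a1a, Bcl2a1b and Bcl2a1d, bases 95 to 144: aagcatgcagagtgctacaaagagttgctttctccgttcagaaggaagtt
The first 50 coding bases are the stretch of that length where the 3 differ most, at 6 positions, which are in capitals in these lines:
Bcl2a1a, bases 1 to 50: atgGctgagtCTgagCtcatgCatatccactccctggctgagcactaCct
Bcl2a1b, bases 1 to 50: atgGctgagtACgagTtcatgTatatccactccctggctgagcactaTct
Bcl2a1d, bases 1 to 50: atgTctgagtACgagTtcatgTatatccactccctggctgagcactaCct
Counted from 1 at the A of the start codon and read from Bcl2a1b, Bcl2a1d carries G4T and T48C, and Bcl2a1a carries A11C, C12T, T16C, T22C and T48C. The first of these stretches lies at chr9:89199454-89199503 in Bcl2a1b, chr9:88731576-88731625 in Bcl2a1d and chr9:88957145-88957194 in Bcl2a1a. The second lies at chr9:89199360-89199409, chr9:88731670-88731719 and chr9:88957051-88957100 in the same order.

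After a cell was required to have at least 50000 reads in genes, 46 cells remained in each gate. They held 262944 to 938322 gene reads in the CD34-negative gate and 374011 to 1154738 in the CD34-positive gate, 33444417 and 30031728 in sum. The 2 cells left out had 24565 gene reads (CD34-negative cell 20) and 31504 (CD34-positive cell 3). Cd34, the gene of the sorted antigen, had 0.209 CPM (counts of the gene in 1e+06 gene reads of the gate) in the CD34-negative gate and 59.9 CPM in the CD34-positive gate. With 200000 gene reads drawn per cell, 2 CD34-negative and 27 CD34-positive cells had a read of it. The basophil genes Fcer1a, Ms4a2 and Gata2 had a read in all 46 cells of both gates. Marker lists of 7 other blood cell types summed to at most 76.7 (CD34-negative) and 112.3 CPM (CD34-positive) per list. Of their 47 genes, 25 and 18 had 0 reads. Single cells could be far higher: the eosinophil list reached 1099 CPM in a CD34-negative and 1496 CPM in a CD34-positive cell. The part of these lists in the results was not tested. The gates also differed in the median number of gene reads per read of ERCC spike-in RNA (6.87 CD34-negative, 14.4 CD34-positive) and in the median number of genes found at 200000 gene reads per cell (4517.5 and 6503).

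One cell went against its label. CD34-negative cell 10 had 7.61 CPM of Fcer1a, where the 91 other kept cells had 167.2 CPM or more, and 3.803 CPM of Gata2, where they had 569.8 CPM or more. It had 966 CPM of Csf1r and 445 CPM of Itgax, both markers of monocytes and dendritic cells, where no other cell passed 147.0 and 57.5 CPM. It had no read of the other genes on the marker list for those cells, Ly6c2, Cx3cr1, Siglech and Cd209a. It also held 12273 CPM of Cd74 and 3548 CPM of H2-Aa, genes of antigen presentation chosen after their values were seen, where no other cell passed 5.04 and 1.78 CPM. The results on the A1 genes rest on this cell, and results are given with and without it where it matters.

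CD34-positive basophils held more Bcl2 RNA than CD34-negative ones (164.9 against 39.3 CPM) and less Bid RNA (56.5 against 159.4 CPM). Mcl1 had the highest level per length of the genes in both gates and, like Pim1, was lower in CD34-positive cells per gene reads (folds of -0.58 and -0.91) but not on the scale of ERCC reads (0.38 and 0.02). Bcl2l1 was higher in CD34-positive cells. The counting intervals of the folds of Bax, Bak1 and Bcl2l11 held 0. The A1 genes had no read in any kept cell but CD34-negative cell 10. A level here is the CPM of the summed reads of a gate. A fold is the log2 ratio of the CD34-positive to the CD34-negative level after adding 1 CPM to each, so it understates differences of low genes. Its 95% interval covers counting error only, and since the protocol has no molecular identifiers, reads amplified from 1 molecule are not independent and the true error is larger.

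Of the 10 genes, 8 had reads in at least 10 of the kept cells and entered the counts. At least 2-fold higher in CD34-positive cells was 1 of the 8, Bcl2, where 21.7% of all 12460 genes that passed the same filter were. At least 2-fold lower was also 1 of the 8, Bid, where 10.1% of all genes were. A count of 1 in 8 lies near both of these shares. The signs were split 4 and 4, and the median fold was -0.10, beside a median of 0.19 and 58.9% of folds above 0 over all genes. The scale moves these figures for all genes together. With scran or TMM factors the median over all genes was -0.0004 or 0.02 and 50.0% or 51.2% of folds were above 0, and with ERCC reads as the scale they were 1.04 and 87.6%.

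Bcl2 (ENSMUSG00000057329, chr1:106538178-106714274, minus strand) encodes the founding pro-survival protein of the family. In CD34-negative cells its level ran from 0 to 686 CPM with a median of 0 CPM, and 25 of 46 cells had no read. In CD34-positive cells it ran from 0 to 631 CPM with a median of 128.1 CPM, and 3 of 46 cells had no read. The ranges of the gates overlapped fully, but most cells did not lie in the same part of them: 43 CD34-positive cells were above the CD34-negative median, and 4 CD34-negative cells were above the CD34-positive one. A level of at least 100 CPM was found in 5 CD34-negative and 25 CD34-positive cells. After 200000 gene reads were drawn from each cell so that depth was equal, a read of Bcl2 was found in 17 of 46 CD34-negative cells (exact Clopper-Pearson interval 23.2 to 52.5%) and in 40 of 46 CD34-positive cells (87.0%, 73.7 to 95.1%). These intervals did not overlap, and they too cover counting error only. The fold of summed reads was 2.04 (counting interval 1.93 to 2.16), above those of 92.5% of all genes. CD34-negative cell 31 alone held 37.4% of the CD34-negative reads of Bcl2, and without it the fold was 2.67. Over all 15 alternative settings the fold lay between 1.81 and 3.00.

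**Figure D1:**
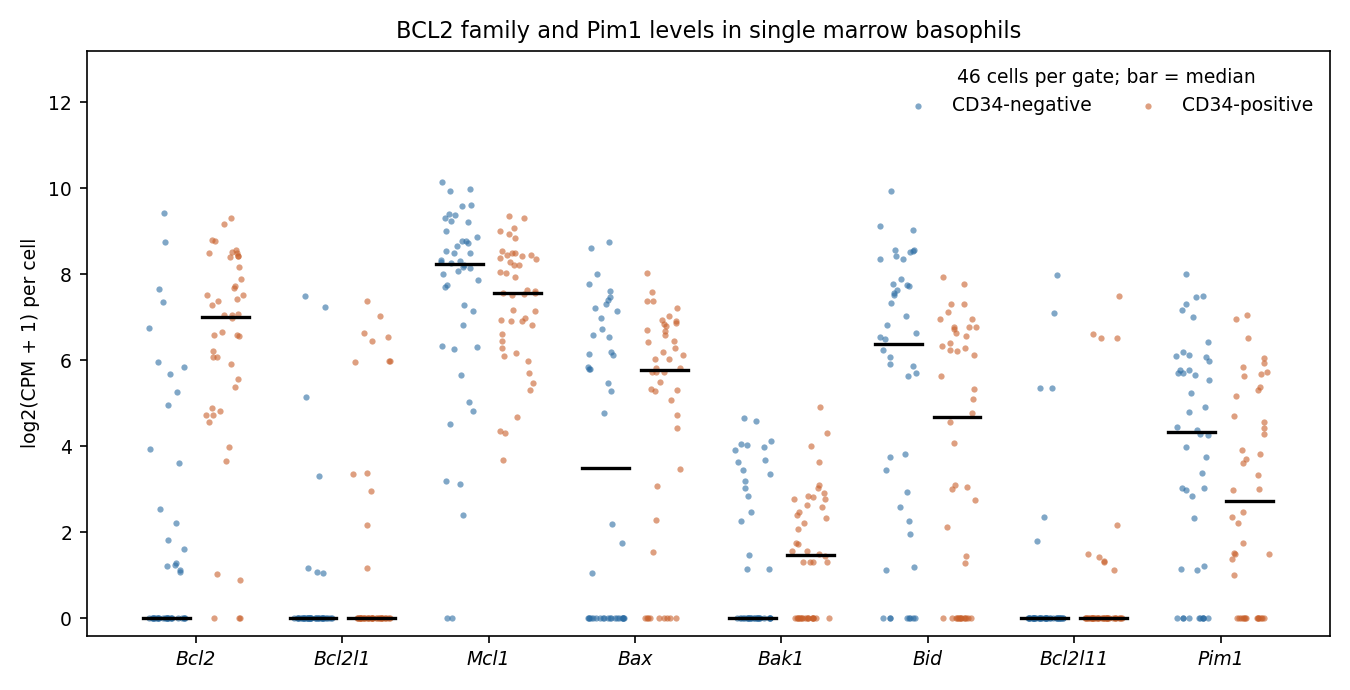
Level of 8 survival genes in each kept cell, as log2(CPM + 1) per cell; each point is 1 of 46 cells per gate, blue for CD34-negative and orange for CD34-positive, and the bar is the median. The Bcl2 median is at 0 CPM in CD34-negative and at 128.1 CPM in CD34-positive cells, whereas Mcl1 and Bid medians are higher in CD34-negative cells and both gates overlap for every gene.

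Mcl1 (ENSMUSG00000038612, chr3:95658788-95663176, plus strand) encodes a short-lived pro-survival protein on which many blood cells depend. It was found in nearly every cell. Its level ran from 0 to 1126 CPM with a median of 301.3 CPM in CD34-negative cells, and from 11.9 to 655 CPM with a median of 188.2 CPM in CD34-positive cells. The gates overlapped widely, with 15 CD34-positive cells above the CD34-negative median. At equal depth 43 of 46 CD34-negative cells (93.5%) and 46 of 46 CD34-positive cells had a read. The summed levels were 342.5 and 228.9 CPM, a fold of -0.58 (counting interval -0.64 to -0.52). Leaving out any 1 cell kept the fold between -0.65 and -0.49. On the ERCC scale the fold was 0.38, so the direction of Mcl1 depends on whether reads are set against all gene reads or against the spike-in RNA.

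Bcl2l1 (ENSMUSG00000007659, chr2:152780668-152831728, minus strand) encodes BCL-XL and, by splicing, the shorter pro-death form BCL-XS, which counts per gene do not separate. Most cells had no read of it: 39 CD34-negative and 33 CD34-positive cells were at 0 CPM, and the highest cells had 180.1 and 165.0 CPM. At equal depth it was found in 4 of 46 CD34-negative cells (8.70%, 2.42 to 20.8%) and 12 of 46 CD34-positive cells (26.1%). The summed levels of 8.64 and 17.1 CPM gave a fold of 0.91 (counting interval 0.64 to 1.18). That value rested on few cells. CD34-negative cell 35 held 47.1% of the CD34-negative reads, and without it the fold was 1.67, whereas without CD34-positive cell 34 it was 0.67.

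The A1 genes Bcl2a1b and Bcl2a1d were almost without reads. Bcl2a1b had 0 reads in both gates. A count of 0 allows up to 3 reads over a whole gate (a one-sided 95% limit), which correspond to 0.0897 CPM for the CD34-negative gate and to 0.0999 CPM for the CD34-positive one. All 12 reads of Bcl2a1d were in CD34-negative cell 10, at 45.6 CPM, and the 10 reads of Bcl2a1a were in the same cell, at 38.03 CPM. Without that cell, which goes against its label, all 4 Bcl2a1 genes in the table were at 0 reads. The number of A1 transcripts cannot be read from these zeros alone. Of the 768 words of 50 bases in the transcripts of Bcl2a1b, 608 (79.2%) also occur, in either orientation, in transcripts of another gene. Bcl2a1d shared 442 of them and the overlapping gene Gm29094 shared 353. For Bcl2a1d the share was 79.5% and for Bcl2a1a 69.0%. Exons of Gm29094 cover 49.1% of the exon bases of Bcl2a1b on the same strand, and Gm29094 itself had 0 reads. The category for reads aligned to several places was at 0% in the table, and 7.68% of reads were in the category for reads that fall on more than 1 gene. How many reads of the A1 genes were lost in these ways was not tested. Cell 10 shows only that reads of Bcl2a1a and Bcl2a1d could be counted.

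**Figure D2:**
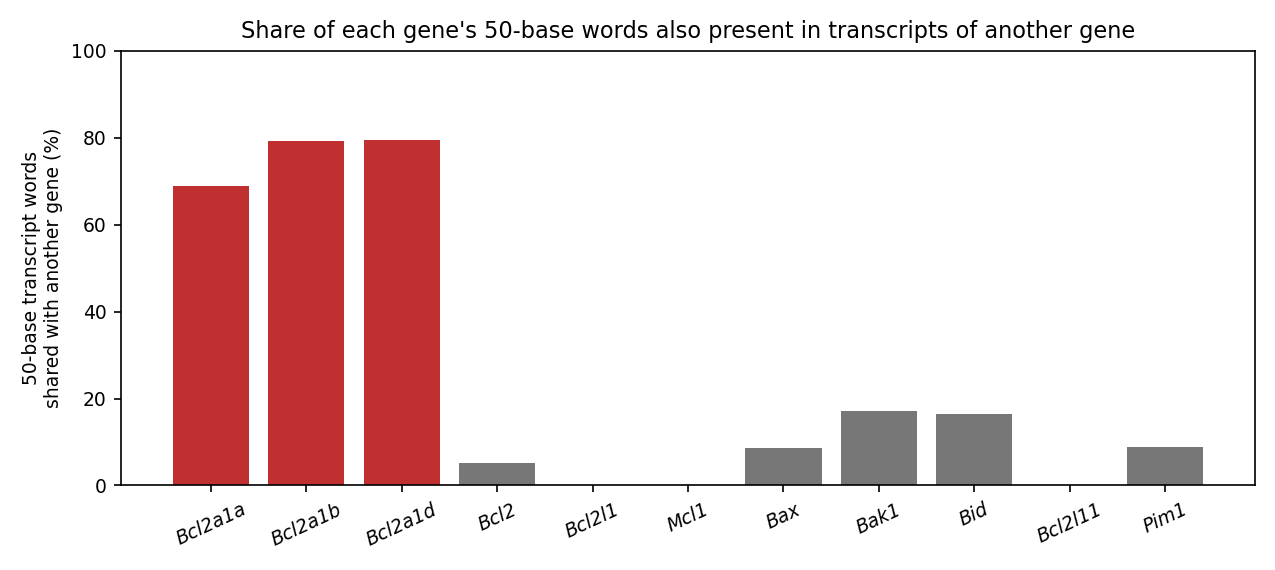
Share of the 50-base words in the transcripts of each gene that also occur, in either orientation, in transcripts of another gene (percent, GENCODE M21). Bars in red are Bcl2a1a, Bcl2a1b and Bcl2a1d and bars in grey the other survival genes. The red bars lie between 69.0% and 79.5% and the grey bars at or under 17.1%. Those of Bak1, Bid and Pim1 come from neighbours that overlap them on the opposite strand.

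Bax (ENSMUSG00000003873, chr7:45461697-45466898, minus strand) encodes the effector that moves from the cytosol to mitochondria. Its level ran from 0 to 433 CPM with a median of 15.1 CPM in CD34-negative cells and from 0 to 262 CPM with a median of 53.9 CPM in CD34-positive cells. More CD34-positive cells held a read, 36 of 46 (78.3%) against 25 of 46 (54.3%) at equal depth, and these intervals overlapped. The summed levels of 68.2 and 73.5 CPM gave a fold of 0.11 (counting interval -0.01 to 0.23), and 12 CD34-negative and 13 CD34-positive cells had at least 100 CPM. The direction of that fold changed under 4 of 15 alternatives, among them scran factors (-0.12) and the ratio of mean CPM per cell (-0.09). On the ERCC scale it kept its direction and was 1.06. CD34-negative cell 10 had 259 CPM of Bax, and without it the fold was 0.14.

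Bak1 (ENSMUSG00000057789, chr17:27019810-27029009, minus strand), the effector that sits in the mitochondrial membrane at rest, had few reads. No cell passed 24.2 CPM in the CD34-negative gate or 29.4 CPM in the CD34-positive gate, and at equal depth 15 CD34-negative and 16 CD34-positive cells had a read. The summed levels were 4.43 and 3.50 CPM, a fold of -0.27 with a counting interval of -0.68 to 0.14. Without the draw to equal depth 19 CD34-negative and 28 CD34-positive cells had a read, and the medians were 0 and 1.78 CPM, so the number of cells and the summed level pointed opposite ways. No direction is given for Bak1. Exons of Ggnbp1 cover 25.5% of its exon bases on the opposite strand, and whether the counting used strand is not given in the sources used here, so the 148 and 105 reads of Bak1 are uncertain.

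Bid (ENSMUSG00000004446, chr6:120891930-120916853, minus strand) encodes the BH3-only protein that caspase-8 cleaves, which links death receptors to the mitochondria. Its level ran from 0 to 978 CPM with a median of 82.1 CPM in CD34-negative cells, and from 0 to 246 CPM with a median of 24.6 CPM in CD34-positive cells. Of the CD34-negative cells 20 had at least 100 CPM, and of the CD34-positive cells 11. At equal depth Bid was found in 36 of 46 (78.3%) and 29 of 46 cells (63.0%), so the gates differed more in the level of the cells with reads than in their number. The summed levels of 159.4 and 56.5 CPM gave a fold of -1.48 (counting interval -1.59 to -1.37), above those of 4.44% of all genes. Leaving out any 1 cell gave -1.63 to -1.26. On the ERCC scale the fold was -0.53, under 2-fold but in the same direction. Exons of Bcl2l13, a neighbour on the opposite strand, cover 17.7% of the exon bases of Bid. Bcl2l13 itself was higher in CD34-positive cells, at 45.2 against 20.5 CPM, the opposite direction to Bid. Whether reads were moved between them was not tested.

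Bcl2l11 (ENSMUSG00000027381, chr2:128126038-128162547, plus strand) encodes BIM, the BH3-only protein that kills many blood cells after cytokine withdrawal. At equal depth 5 of 46 cells in each gate had a read. The summed levels of 11.2 and 11.8 CPM gave a fold of 0.07 (counting interval -0.21 to 0.34). A few cells set this value. CD34-negative cell 29 held 49.7% of the reads of its gate and CD34-positive cell 9 held 31.7%. The fold was 0.92 without the first and -0.41 without the second, so no direction is given for Bcl2l11.

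Pim1 (ENSMUSG00000024014, chr17:29490753-29496112, plus strand) encodes a kinase induced by cytokines through STAT5 that phosphorylates pro-death proteins such as BAD. Its level ran from 0 to 256 CPM with a median of 19.3 CPM in CD34-negative cells and from 0 to 133 CPM with a median of 5.73 CPM in CD34-positive cells. There were 32 CD34-negative cells above the CD34-positive median and 15 CD34-positive cells above the CD34-negative one. At equal depth 31 CD34-negative cells (67.4%) and 25 CD34-positive cells (54.3%) had a read. The summed levels of 42.2 and 21.9 CPM gave a fold of -0.91 (counting interval -1.09 to -0.73). That is just under 2-fold, but the fold was past 2-fold as a ratio of mean CPM per cell (-1.002) and with scran factors (-1.14). On the ERCC scale it was 0.02.

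**Figure D3:**
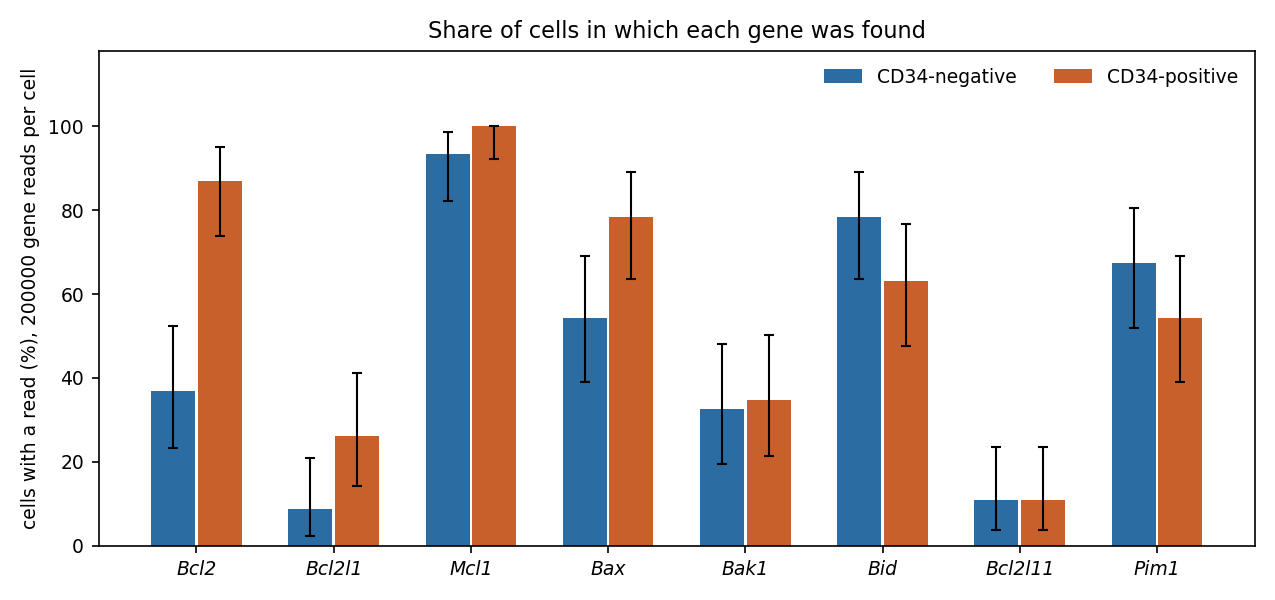
Share of the 46 kept cells of each gate in which a gene had at least 1 read after 200000 gene reads were drawn per cell (percent); lines are 95% exact Clopper-Pearson intervals, which cover counting error only. Only for Bcl2, found in 40 CD34-positive and 17 CD34-negative cells, do the intervals of the gates not overlap.

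**Figure D4:**
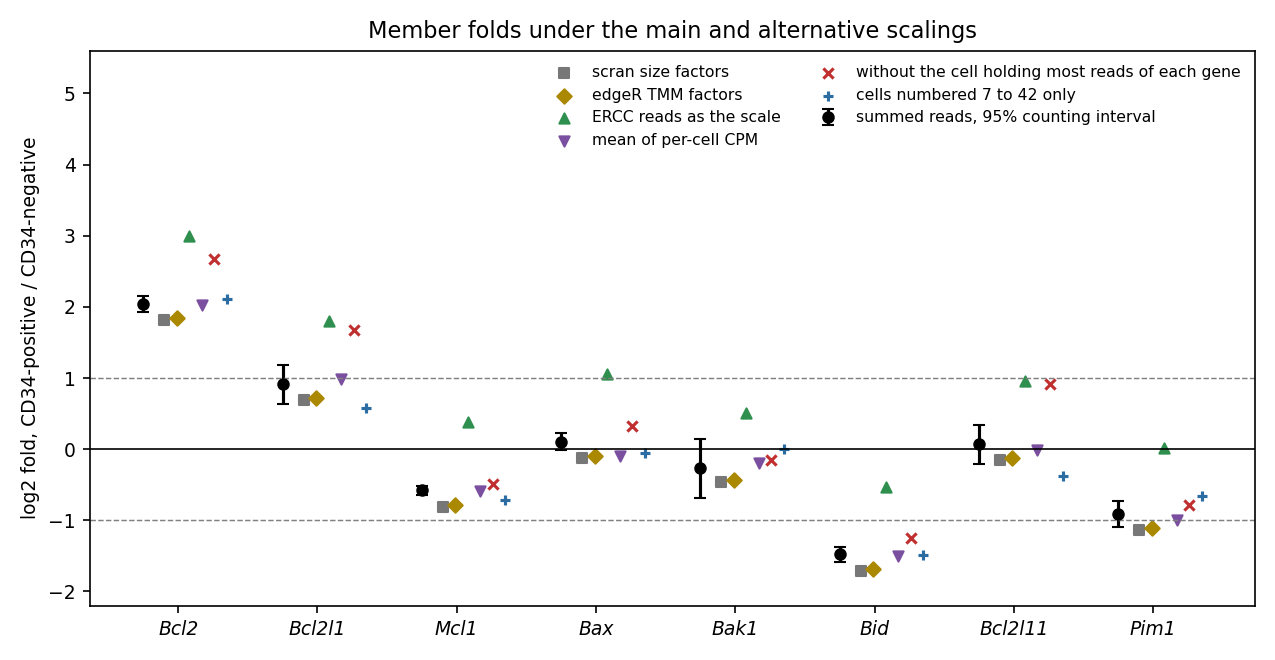
Log2 fold of the CD34-positive over the CD34-negative gate for each gene; black points are summed reads with their 95% counting interval, other symbols are alternative scalings or sets of cells, and dashed lines mark 2-fold. Bcl2 and Bcl2l1 lie above and Bid below 0 under each setting drawn, while Mcl1, Bax, Bak1, Bcl2l11 and Pim1 lie on both sides of 0.

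Levels of different genes were compared per kilobase of annotated exon. In CD34-negative cells the order of summed CPM per kilobase was Mcl1 100.2, Bid 44.9, Bax 43.3, Pim1 12.5, Bcl2 4.29, Bcl2l1 1.88, Bak1 1.84 and Bcl2l11 1.39. In CD34-positive cells it was Mcl1 67.0, Bax 46.7, Bcl2 18.004, Bid 15.9, Pim1 6.53, Bcl2l1 3.73, Bcl2l11 1.46 and Bak1 1.45. Mcl1 led both orders, and Bcl2 stood below Bid and Pim1 in the first and above them in the second. No neighbours in either order differed in their mean over cells by more than the larger of their cell-to-cell SDs. Bcl2 was above Mcl1 per kilobase in 3 of 46 CD34-negative and 9 of 46 CD34-positive cells. A read of Bcl2, Bcl2l1 or Mcl1 was found in 44 CD34-negative cells and all 46 CD34-positive cells. Of the 8 genes a median of 4 (range 1 to 6) was found per CD34-negative cell and of 5 (range 2 to 7) per CD34-positive cell. Over all genes the medians found at the same depth were 4517.5 and 6503.

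Within a gate the genes varied largely apart from each other. Over the 46 cells of a gate, Spearman's rho of CPM for the 28 pairs ran from -0.27 (Mcl1 with Bak1) to 0.34 (Bcl2l1 with Bax) in CD34-negative cells. It ran from -0.29 (Bcl2 with Mcl1) to 0.44 (Bax with Bid) in CD34-positive cells. These are descriptions over cells that share library depth and a scale summing to a constant, in sparse counts, and they are weak. The genes were also set against 7 measures per cell, among them depth, genes found, Mpo, Cd34, Prss34 and a summed list of G2/M genes. Of 112 such correlations 3 reached 0.5 in size: Bax with gene reads in CD34-positive cells (0.52), and Bak1 with Prss34 (0.56) and Bcl2l11 with Cd34 (0.60) in CD34-negative cells. Cd34 had 7 reads in the whole CD34-negative gate, so the last value rests on very few reads. Without CD34-negative cell 10 the values in that gate were 0.55 for Bak1 and 0.60 for Bcl2l11. Among 4224 genes with reads in at least 23 of the 46 cells of each gate, the one most like each survival gene reached a mean rho over the gates of 0.33 to 0.49, under the 0.5 set for naming a gene.

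Other genes of the same death pathways were taken from 7 lists of 52 genes, of which 42 had reads in at least 10 cells. At least 2-fold higher in CD34-positive cells were 10 of the 42 and at least 2-fold lower 6, beside 21.7% and 10.1% of all genes, and their median fold was 0.20 (0.19 over all genes). With scran factors 7 were higher and 8 lower, where 17.3% and 14.5% of all genes were. With TMM factors 7 were higher and 7 lower, where 17.8% and 13.9% of all genes were. In the list of other BCL2 family genes 3 of 8 were at least 2-fold higher and 3 lower. The higher ones were Bcl2l2, which encodes the pro-survival BCL-W (4.66 and 13.7 CPM, fold 1.38), Bcl2l12 (3.83 and 13.1 CPM, fold 1.55) and Bcl2l13 (fold 1.10). Bcl2l13 had 55.5% of its CD34-negative reads in cell 23, and its fold was 2.16 without that cell and 0.86, under 2-fold, without CD34-positive cell 43. Bcl2l2 rested in CD34-negative cells on cell 36, which held 62.8% of the reads there. Without cell 36 its fold was 2.40, and without CD34-positive cell 34 it was 1.02. The most abundant of the lower ones was Bnip3l, a gene of mitophagy, at 74.6 and 31.5 CPM (fold -1.22, and -0.99, under 2-fold, as a ratio of mean CPM per cell). The other lower ones, Bbc3 and Bnip3, named after their values were seen, were under 2-fold without the cell with most reads, at -0.81 and -0.82.

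Of the kinases related to Pim1, Pim3 stood at 36.4 and 13.1 CPM (fold -1.41), and at -0.71 without CD34-negative cell 11. Of the genes that act at mitochondria 2 of 9 were at least 2-fold higher, near the 21.7% of all genes, and none lower (10.1% of all genes). Vdac1, a channel of the outer membrane, had 38.7 and 87.3 CPM (fold 1.15), and Vdac2, the most abundant of that list, 193.5 and 158.3 CPM (fold -0.29, and 0.67 on the ERCC scale). The genes of the caspase list had folds above 0 in 5 of 5 cases, beside 58.9% of all genes, with a median of 0.47 and none at 2-fold. Casp6, named after its values were seen, had a fold of 0.03 (counting interval -0.18 to 0.24) and of -0.02 as a ratio of mean CPM per cell. Casp9, the caspase of the apoptosome and likewise named after its values were seen, was in the mitochondrial list and went the other way, at 49.4 and 30.9 CPM (fold -0.66). On the ERCC scale its fold was 0.28.

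Inhibitor of apoptosis genes had 1 of 8 at least 2-fold higher and 1 lower, with a median fold of -0.41, beside 21.7% and 10.1% of all genes and their median of 0.19. The higher one was Birc5, which encodes survivin and acts in cell division, at 15.5 and 57.7 CPM (fold 1.83, and 2.75 without CD34-negative cell 36). At equal depth 2 CD34-negative and 10 CD34-positive cells had a read of it. The summed G2/M list had a median per cell of 12.4 CPM in the CD34-negative gate and 351 CPM in the CD34-positive gate, and its part in the fold of Birc5 was not tested. The lower one was Naip2, at 127.3 and 53.2 CPM (fold -1.24, and -0.29, under 2-fold, on the ERCC scale). Birc6, the most abundant, had 383.6 and 423.8 CPM (fold 0.14).

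Of the 7 genes in the death receptor list 2 were at least 2-fold higher and 1 lower, near the 21.7% and 10.1% of all genes, with a median fold of 0.26 (0.19 over all genes). The higher ones were the receptor genes Tnfrsf1a (fold 1.64, and 0.95 as a ratio of mean CPM per cell) and Tnfrsf10b (fold 1.73, and 0.84 without the cell with most reads), named after their values were seen. The lower one, Fas, whose product triggers caspase-8, had 26.1 CPM in the CD34-negative gate and 2.80 CPM in the CD34-positive gate (fold -2.84). At equal depth 8 CD34-negative cells and 1 CD34-positive cell had a read. CD34-negative cell 6 held 55.0% of the reads of its gate, and CD34-positive cell 23 held 97.6% of those of the other. The fold of Fas was -1.78 without the first and -4.67 without the second. Cflar, which encodes the caspase-8 inhibitor FLIP, had 201.7 and 152.2 CPM (fold -0.40, and 0.56 on the ERCC scale). In the p53 list Trp53 had 64.7 and 132.3 CPM (fold 1.02) and its target Cdkn1a 2.33 and 18.1 CPM (fold 2.52). At equal depth 2 CD34-negative and 10 CD34-positive cells had a read of Cdkn1a. With Mdm2, the list had 2 of 3 genes at least 2-fold higher, beside 21.7% of all genes. Trp53 was under 2-fold, at 0.94, without CD34-positive cell 28, and Cdkn1a ranged from 2.01 without CD34-positive cell 13 to 3.47 without CD34-negative cell 25.

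**Figure D5:**
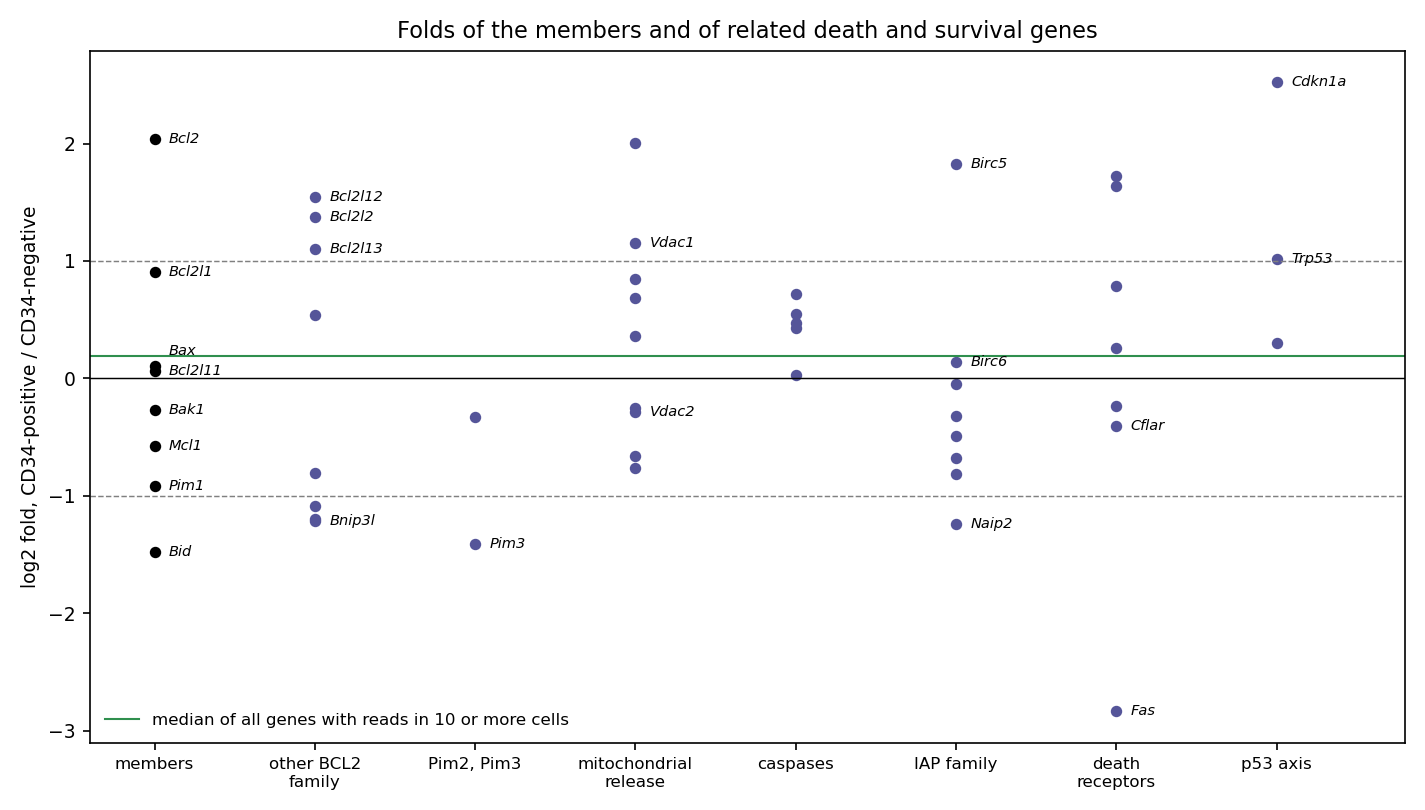
Log2 fold of the CD34-positive over the CD34-negative gate for the 8 survival genes (black) and the 42 related genes with reads in at least 10 cells (blue), by list; dashed lines mark 2-fold and the green line is the median of all 12460 genes, 0.19. Cdkn1a and Bcl2 lie highest among the named genes, at 2.52 and 2.04, and Fas lies lowest, at -2.84, or at -1.78 without 1 cell.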

How the data were processed

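Poly(A) RNA of single sorted cells was made into cDNA with a Smart-seq2-type protocol with ERCC spike-in RNA and read as 50-base single-end reads, per the labels' protocols. GSNAP, HTSeq 0.5.3p3 and build mm10 are named in the submitters' processing notes; the annotation release and strand setting are not given in the sources used here. The authors deposited whole-number read counts per gene for each cell, not normalized, with 92 ERCC sequences and 5 summary categories. Of all reads, 32.4% were in genes, 33.0% in no annotated gene, 22.9% not aligned and 7.68% ambiguous; these categories were left out of library sizes.

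Symbols were matched to 45143 of 46078 identifiers. A cell was kept if it had 50000 or more gene reads and 1000 or more genes with a read, and if mitochondrial genes took under 20% and ERCC sequences under 50% of its reads. No 2 cells had identical counts. Reads were summed per gate, scaled to CPM and compared as log2 ratios with 1 CPM added; genes seen in 10 or more of the kept cells were counted, and a fold of at least 2 was the threshold of size. No test was made, since each gate is 1 sample. Intervals (95%, Poisson or exact Clopper-Pearson) cover counting error only. Alternatives used scran 1.30.0 and edgeR 4.0.16 (TMM factors only) in R 4.3.3, ERCC reads, mean CPM per cell, pseudocounts of 0.1 and 10 CPM, other filters and left-out cells; the computation of folds was tested on simulated data. Gene models and shared 50-base words came from GENCODE M21, with words searched in both orientations. Python 3.11.15 with pandas 2.3.3 and scipy 1.17.1 was used.

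The 10 genes and all lists were chosen with earlier results of these data known. Named were all 10 genes, related genes at 10 CPM or more in a gate that passed 2-fold in the same direction for summed reads, mean CPM per cell and without the cell holding most reads, and the most abundant gene of each related list. One gene that this rule names is not reported here.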

Additional observations from a re-analysis of the deposited data

How the results depend on the processing

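Bcl2 stayed higher and Bid lower in CD34-positive cells under all 15 alternatives, at 1.81 to 3.00 and -1.71 to -0.53 on the log2 scale. Of 120 alternative folds of the 8 genes, 86 stayed within the counting interval and 11 changed sign: 4 of Bax, 4 of Bcl2l11 and 1 each of Mcl1, Bak1 and Pim1. All 48 alternative differences in the share of cells with a read stayed within the counting interval. The number of survival genes at least 2-fold lower was 2 (Bid and Pim1) with mean CPM per cell, scran or TMM factors, where 9.75%, 14.5% and 13.9% of all genes were, and 0 on the ERCC scale (2.25% of all genes). The number at least 2-fold higher was 3 on the ERCC scale (Bcl2, Bcl2l1 and Bax) and 2 when, for each gene, the cell with most of its reads was left out (Bcl2 and Bcl2l1), beside 51.8% and 25.8% of all genes. Of the related genes, 22 were at least 2-fold higher and 1 lower on the ERCC scale, with a median of 1.12, where 51.8% and 2.25% of all genes were. There were 2 higher with a pseudocount of 10 CPM (11.2% of all genes) and 3 lower without the cell holding most reads (6.09% of all genes). The ERCC scale moved the median of all genes to 1.04; the cause was not tested. Without CD34-negative cell 10, left out after seeing the data, 1 survival gene was higher and 1 lower, beside 21.9% and 9.98% of all genes. The folds of Bcl2, Bid and Mcl1 were then 2.03, -1.49 and -0.58. No paired analysis was possible because the labels tie no cell to a mouse and the cell numbers pair nothing across the gates. Depth limits Bak1, which has few reads in any cell, whereas most reads of Bcl2l1 and Bcl2l11 lie in a few cells.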
